A study of Homo sapiens with 60 samples.

Results

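The respiratory chain of human cells is built from 2 genomes, and 43 of its genes were followed here among the 60675 genes counted in SW1783, a human astrocytoma cell line. The genes were taken from a list of symbols. They comprise the 13 protein genes of mitochondrial DNA, 28 nuclear genes for subunits of the respiratory complexes and of ATP synthase, and 2 regulators, TFAM and PPARGC1A. All 43 were found and all 43 passed the filter on low counts, which left 17919 genes tested. Cells grown in L-15 medium with 10% serum were treated for 24 h, and total RNA was made into directional mRNA libraries and read as paired ends of 100 bases. The vehicle group received DMSO alone, given as 0.1% in the sample labels and 2% in the series text. Of the 3 drugs, each at 10 µM, wortmannin and LY294002 are inhibitors of PI3-kinase and thioridazine is a phenothiazine antipsychotic. The other groups received hot-water extracts of poria, atractylodes, licorice, ginseng, angelica or peony at 500 (high), 100 (medium) or 20 µg/mL (low). These are the doses in the labels, while the series text says that extracts reaching IC20 under 500 µg/mL were diluted further. There were 22 groups in all, with 3 libraries in 16 groups and 2 libraries in each of the 6 angelica and peony groups.

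Depth per library lay between 19.45 and 30.87 M counts (median 26.05 M). Astroglial identity was uneven: VIM stood at 6017 CPM and CD44 at 2746 CPM in the vehicle libraries, whereas the defining markers GFAP and AQP4 were at 0.0831 and 0.0115 CPM. By sample code the vehicle libraries formed a set of their own, so that the effect of a treatment and that of its code set cannot be told apart wherever vehicle is the reference. All such comparisons also share the 3 vehicle libraries and are not independent of one another. Replicate 3 of licorice medium and replicate 1 of atractylodes high stood farthest from the other libraries of their own 3-library groups, and counts that rest on them are given with and without them. No source used here says whether the replicates came from separate cultures, and p-values then measure only the spread between these libraries.

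Respiratory complexes I to IV pass electrons from NADH and succinate to oxygen. Complexes I, III and IV, but not complex II, also pump protons, and ATP synthase makes ATP from the resulting gradient. Mitochondrial DNA encodes core proteins of complexes I, III and IV and of ATP synthase, and is transcribed from both strands as long RNAs. These are cut mostly at the tRNAs that lie between many of the genes. Complex II and all other subunits are nuclear and are made on cytosolic ribosomes. TFAM packages mitochondrial DNA and activates its transcription, and PPARGC1A encodes PGC-1α, a coactivator of nuclear genes for mitochondrial proteins.

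Reading frames on the mitochondrial genome can overlap, and reads from an overlap cannot be given to either gene alone. MT-ATP8 and MT-ATP6, both subunits of ATP synthase, share 46 bases at positions 8527 to 8572 of chromosome M (GRCh38), which matters for the 207-base MT-ATP8 more than for the 681-base MT-ATP6. MT-ND4L and MT-ND4, both subunits of complex I, share 7 bases at 10760 to 10766. The overlaps are shown because the count of each short gene depends on how shared reads were divided, with the start codon of the downstream gene and the stop codon of the upstream gene in capitals.
MT-ATP8 and MT-ATP6: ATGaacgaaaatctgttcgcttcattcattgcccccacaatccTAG
MT-ND4L and MT-ND4: ATGcTAA

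Mitochondrial transcripts made up far more of each library than the nuclear subunits did. The 13 mitochondrial genes held 3.36% to 5.42% of all counts (median over the 60 libraries 4.17%), and the 28 nuclear subunits held 0.27% to 0.371% (median 0.311%). In the vehicle libraries the mitochondrial share was 4.53% ± 0.193 (SD, n = 3) and the nuclear share 0.294% ± 0.00652 (SD, n = 3). The mitochondrial level also varied more between libraries treated alike. The coefficient of variation of its summed CPM within a group had a median of 7.05% over the 22 groups, against 2.47% for the summed CPM of the nuclear subunits. In 12 of the 22 groups the library with the lowest mitochondrial sum was the one with the highest nuclear sum. With 2 or 3 libraries per group such a match is frequent without any relation, and a relation was not tested. In bulk RNA, fewer cells of a kind and less RNA per cell cannot be told apart.

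Among the drugs, the mitochondrial share was 5.18% ± 0.262 (SD, n = 3) with wortmannin, 5.05% ± 0.184 (SD, n = 3) with LY294002 and 3.79% ± 0.335 (SD, n = 3) with thioridazine. The 3 thioridazine libraries, between 3.40% and 4.03%, lay below the 3 vehicle libraries, between 4.32% and 4.70%, and all 6 libraries of the PI3-kinase inhibitors lay above them. A share below all vehicle libraries was not particular to thioridazine. All libraries of ginseng high, angelica high and medium, and the low doses of atractylodes, licorice and peony also lay below them. The mean was 3.82% in angelica medium and 3.91% in angelica high. The other extract groups overlapped the vehicle libraries. No test was made of these summed shares.

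**Figure D1:**
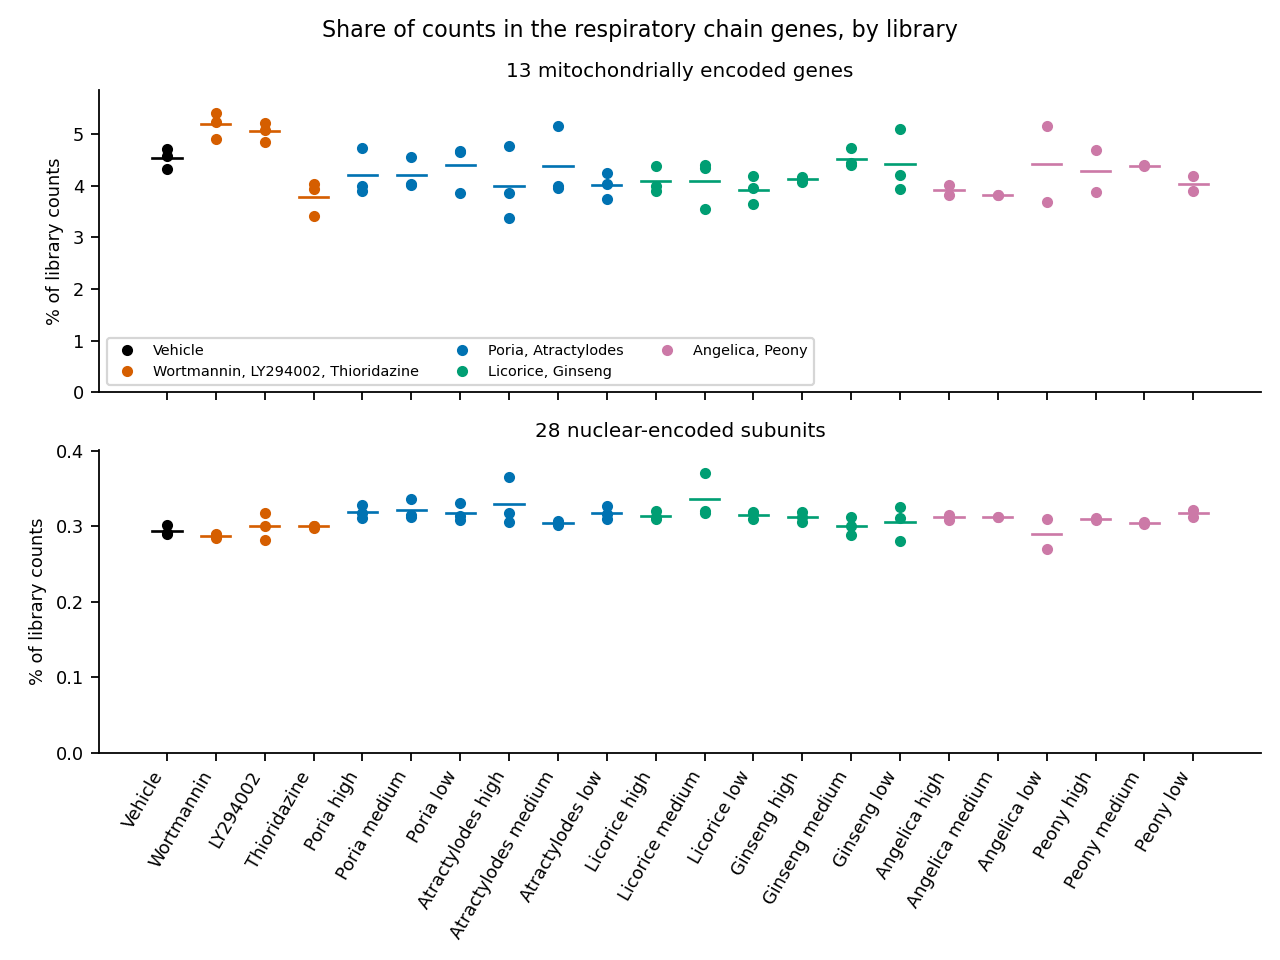
Share of all counts held by the 13 mitochondrial genes and by the 28 nuclear subunits, in percent, in each library of the 22 groups; points are libraries, lines are group means and colours mark the code sets. The 3 thioridazine libraries lie below the vehicle libraries in the mitochondrial share, as do those of several extract groups. Replicate 1 of atractylodes high combines the lowest mitochondrial share of its group, 3.36%, with the highest nuclear share, 0.365%.

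Per length, subunits of complex IV were the most abundant mitochondrial messages. MT-CO1, the catalytic subunit of cytochrome c oxidase, stood at 8368 ± 479 CPM per kilobase in vehicle (SD, n = 3), MT-CO2 at 7436 ± 363 and MT-CO3 at 6850 ± 580. MT-CO2 and MT-CO3 did not differ beyond their spread, and MT-CO1 was the highest in 50 of 60 libraries, MT-CO3 in 6 and MT-CO2 in 4. Then followed MT-ND4 at 4292 ± 300, MT-ATP6 at 3957 ± 47.6, MT-ND1 at 3311 ± 311, MT-CYB at 3298 ± 261, MT-ND3 at 3160 ± 386, MT-ND4L at 2974 ± 33.1 and MT-ND2 at 2797 ± 147 CPM per kilobase, of which MT-ND1 to MT-ND4L did not differ beyond their spread. MT-ATP8 at 1351 ± 308 and MT-ND5 at 1256 ± 39.8 lay lower. MT-ND6, the complex I subunit on the other strand from the remaining 12 genes (chromosome M, 14149 to 14673), was the lowest of the 13 in 60 of 60 libraries, at 552 ± 37.3 in vehicle. Its neighbour MT-ND5 ends at 14148, and whether the counting used strand is not stated in any source used here.

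Nuclear subunits were lower than every mitochondrial gene on the same scale in vehicle. ATP5F1B, the catalytic β subunit of ATP synthase, was the highest at 198 ± 5.63 CPM per kilobase in vehicle (SD, n = 3), and NDUFB10, an accessory subunit of complex I, came next at 85.7. TFAM stood at 9.67 ± 0.143 and PPARGC1A at 0.0963. Lengths of nuclear genes are those of their merged exons, which are longer than any single transcript. Among the subunits they run from 844 bases for NDUFA8 to 14160 for SDHC, and the order among nuclear genes depends on them.

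Thioridazine lowered part of the mitochondrial genome. Of its 13 protein genes 6 fell and 0 rose against vehicle, with a median log2 fold change of -0.32 (from -0.55 to 0.32), whereas over all 17919 genes the median was 0.02. A gene is called here where the quasi-likelihood test of edgeR, Benjamini-Hochberg adjusted over all genes tested, gave an adjusted p under 0.05. By that rule thioridazine changed 48.4% of all genes, 24.6% upward and 23.8% downward. The share of mitochondrial genes called, 46.2%, was thus close to that of all genes, and every one of the 6 calls was a fall. Without the filter on low counts 10 fell and 1 rose. Summed levels of cell type markers differed in the same libraries. The summed level of 12 astroglial markers, 7 of them under 1 CPM in every vehicle and thioridazine library, was 8642 to 9035 CPM in vehicle and 6359 to 6544 CPM with thioridazine. That of 7 markers of neurons and oligodendrocytes (4 under 1 CPM) was 61.9 to 64.5 CPM against 94.5 to 101 CPM, and that of 8 epithelial, blood and endothelial markers was 418 to 428 CPM against 309 to 320 CPM. A few genes made up most of each sum in vehicle: VIM (6017 CPM) and CD44 (2746) of the first, SYT1 (36.9) and SNAP25 (20.4) of the next, and KRT18 (224) and CD68 (169) of the last. The part of these markers in the mitochondrial change was not tested.

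The largest fall was that of MT-ATP6, the proton channel subunit of ATP synthase. MT-ATP6 measured 2731, 2669 and 2684 CPM in the vehicle libraries and 1577, 1819 and 2130 CPM with thioridazine. All 3 treated libraries were below all 3 vehicle libraries, and the log2 fold change was -0.55 ± 0.12 (SE; adjusted p = 2.40e-04).

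The messages of all 3 mitochondrial subunits of complex IV fell with thioridazine, while no nuclear subunit of the complex was called lower. MT-CO1 measured 13542, 12094 and 13073 CPM in vehicle and 8763, 9641 and 9760 CPM with thioridazine, a log2 fold change of -0.46 ± 0.12 (SE; adjusted p = 9.90e-04). MT-CO3 measured 5889, 5185 and 5038 CPM against 3622, 4380 and 4114 CPM, a change of -0.41 ± 0.10 (adjusted p = 3.56e-04). MT-CO2, a copper-binding subunit, went from 5308, 5132 and 4818 CPM to 3896, 4115 and 4065 CPM, a change of -0.34 ± 0.10 (adjusted p = 0.0065). The treated and vehicle libraries did not overlap for any of these genes, and MT-ATP6 and the 3 complex IV genes stayed called when any 1 of the 6 libraries was left out.

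MT-CYB, the cytochrome b of complex III, measured 3805, 3447 and 4039 CPM in vehicle and 2359, 3053 and 2809 CPM with thioridazine (log2 fold change -0.46 ± 0.15, adjusted p = 0.0114). Of the 7 mitochondrial genes of complex I only MT-ND3 was called, at -0.44 ± 0.14 (adjusted p = 0.00888), from 1194, 941.7 and 1144 CPM to 637.6, 837.5 and 939.2 CPM. Replicate 1 was the lowest thioridazine library for both genes. Without it the changes were -0.36 for MT-CYB (adjusted p = 0.0837) and -0.30 for MT-ND3 (adjusted p = 0.108), and 4 mitochondrial genes were called. The call was also lost without vehicle replicate 3 for MT-CYB (adjusted p = 0.0598) and without vehicle replicate 1 for MT-ND3 (adjusted p = 0.0624). MT-CO2, MT-CO3 and MT-ND3 were named after their values were seen.

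The other mitochondrial genes did not pass the test with thioridazine. The other complex I subunits ranged from -0.23 for MT-ND4 (adjusted p = 0.269) over 0.03 for MT-ND4L and 0.03 for MT-ND5 to 0.32 for MT-ND6 (adjusted p = 0.167). MT-ATP8 stood at -0.32 with a wide SE of 0.26. The mitochondrial ribosomal RNAs, which are cut from the same long transcripts, were at 0.15 for MT-RNR2 (adjusted p = 0.167) and 0.20 for MT-RNR1 (adjusted p = 0.097). MTATP6P1, a nuclear copy of MT-ATP6 held at 477.9 CPM in vehicle, fell by 0.59 on the log2 scale (adjusted p = 0.0106), and how reads were divided between such copies and the mitochondrial genes was not tested.

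Both PI3-kinase inhibitors gave median log2 fold changes of 0.15 over the 13 mitochondrial genes. With wortmannin MT-CO3 alone was called, 1 of 13 genes against 31.7% of all genes. MT-CO3 measured 7016, 7318 and 6748 CPM against 5889, 5185 and 5038 CPM in vehicle, with no overlap, and rose by 0.39 ± 0.10 (SE; adjusted p = 0.00131). With LY294002, which changed 39.3% of all genes, 0 of 13 were called by edgeR, although 4 had an unadjusted p under 0.05 and DESeq2 called 2. With the drug and vehicle groups fitted alone, 5 mitochondrial genes rose with wortmannin and 4 with LY294002, and without the filter 9 and 7 rose; 0 fell in any of these fits.

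Thioridazine and the inhibitors shared a code set, and no vehicle library enters their direct comparison. Against wortmannin 6 mitochondrial genes were lower with thioridazine and 0 higher, beside 38.7% of all genes called and 19.8% lower. MT-CO3 differed by -0.80 ± 0.10 (SE; adjusted p = 3.60e-09) and MT-ATP6 by -0.78 ± 0.12 (adjusted p = 1.47e-06). The wortmannin libraries held 3404, 3087 and 3014 CPM of MT-ATP6, all above the thioridazine libraries.

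Against LY294002 7 mitochondrial genes were lower and 0 higher, beside 40% of all genes called and 20.4% lower. MT-ATP8 differed by -0.88 ± 0.26 (adjusted p = 0.00673), a call lost without replicate 3 of LY294002 (adjusted p = 0.0816), and MT-ND3 by -0.73 ± 0.14 (adjusted p = 5.07e-05). MT-ATP6 differed by -0.67 ± 0.12 (adjusted p = 2.19e-05), the LY294002 libraries holding 2881, 2914 and 2972 CPM. Between wortmannin and LY294002, which differed in 16.4% of all genes, 0 mitochondrial genes were called by edgeR or by DESeq2, and 0 had an unadjusted p under 0.05, whereas 4 were called without the filter on low counts and 1 with the groups fitted alone.

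**Figure D2:**
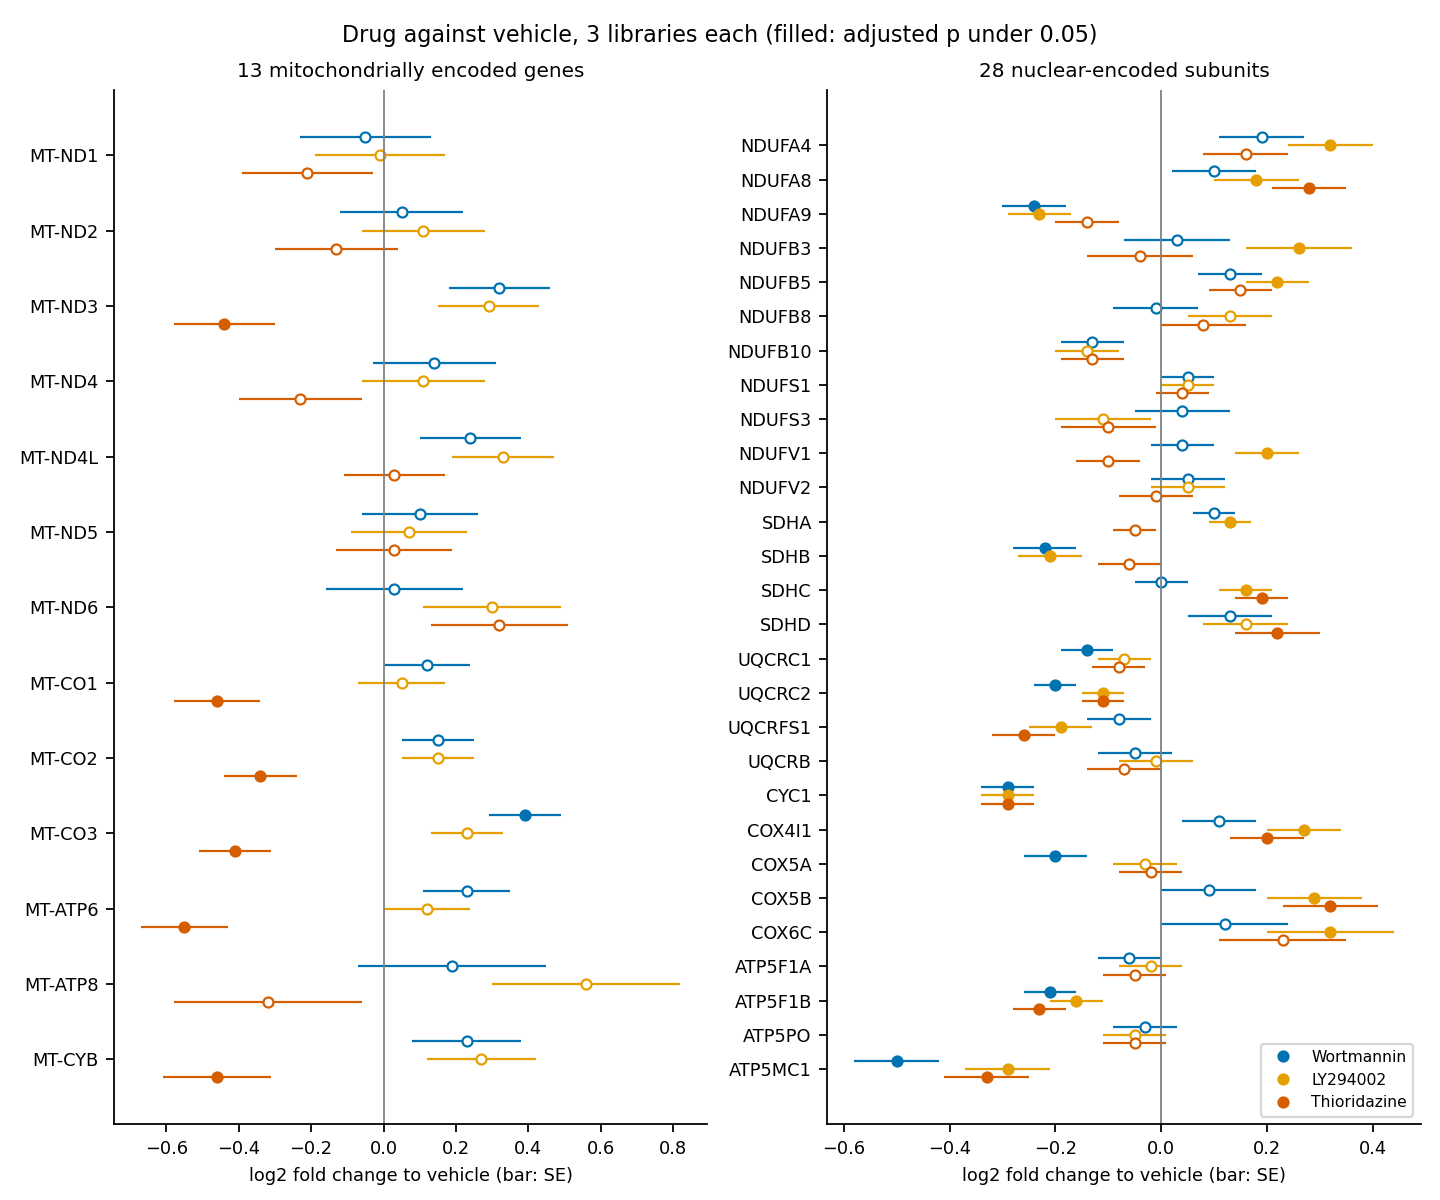
Log2 fold change against vehicle, with its SE, of the 13 mitochondrial genes (left) and the 28 nuclear subunits (right) under wortmannin, LY294002 and thioridazine; filled points passed the test at an adjusted p under 0.05. MT-ATP6 is farthest to the left among the mitochondrial genes, at -0.55 with thioridazine, and ATP5MC1 among the nuclear subunits, at -0.50 with wortmannin.

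The regulators were called in opposite directions under thioridazine, and only the rise of PPARGC1A stayed called without each library in turn. PPARGC1A measured 1.072, 1.204 and 0.863 CPM in vehicle and 4.728, 4.470 and 5.225 CPM with thioridazine, from 23 to 34 counts per vehicle library and 107 to 140 per treated library. All treated libraries lay above all vehicle libraries, and the log2 fold change was 2.19 ± 0.26 (SE; adjusted p = 2.60e-10). PPARGC1A was also higher with thioridazine than with LY294002 by 2.29 ± 0.27 (adjusted p = 2.85e-10) and than with wortmannin by 1.98 ± 0.25 (adjusted p = 4.81e-09). Against vehicle it was at 0.22 with wortmannin (adjusted p = 0.637) and -0.10 with LY294002 (adjusted p = 0.841).

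TFAM measured 54.8, 53.29 and 54.52 CPM in vehicle and between 48.81 and 50.47 CPM with thioridazine, without overlap. Its log2 fold change was -0.12 ± 0.05 (SE; adjusted p = 0.0354), and it was -0.08 with wortmannin (adjusted p = 0.238) and -0.06 with LY294002 (adjusted p = 0.36). The call with thioridazine was lost without any 1 of the 3 vehicle libraries and without thioridazine replicate 2 or 3 (adjusted p from 0.0726 to 0.144), whereas that of PPARGC1A was kept without each library in turn. Over the 18 extract groups TFAM ranged from -0.05 to 0.10 and PPARGC1A from -0.55 to 0.58, with no call. Between thioridazine and the other drugs TFAM was not called, at -0.06 against LY294002 (adjusted p = 0.345) and -0.04 against wortmannin (adjusted p = 0.535). Over all 37 comparisons TFAM was called in 1 and PPARGC1A in 3.

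The nuclear subunits did not move as a block with any drug. Their median log2 fold change was -0.01 with wortmannin, 0.02 with LY294002 and -0.05 with thioridazine. With wortmannin 0 rose and 8 fell (28.6% called), beside 15.4% of all genes that rose and 16.4% that fell. With thioridazine 5 rose and 5 fell (35.7% called, 48.4% of all genes). In the fit of all 60 libraries LY294002 changed a larger share of them than of all genes, 10 upward and 7 downward (60.7% against 39.3%, of which 19.4% rose and 19.9% fell). With each drug and vehicle fitted alone, wortmannin raised 5 and lowered 10 and thioridazine raised 8 and lowered 10. Without replicate 3 of LY294002 the counts were 3 upward and 7 downward. In that library the shortest 20% of genes was 0.066 higher and the longest 20% 0.079 lower (medians, log2) than in the other LY294002 libraries. Replicate 1 deviated the other way, with the shortest 20% 0.093 lower and the longest 20% 0.096 higher. Without replicate 1 the falls of ATP5MC1, ATP5F1B, SDHB, UQCRFS1 and UQCRC2 were not called. Of the 28 nuclear subunits 14 are no longer than the limit of the shortest 20%, which is 3281 bases of merged exons. The part of transcript length in these counts was not tested.

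By complex, the falls common to the drugs lay in complex III and ATP synthase. In each drug comparison 3 of 5 nuclear subunits of complex III and 2 of 4 of ATP synthase fell and 0 rose. Of all genes 16.4% fell with wortmannin, 19.9% with LY294002 and 23.8% with thioridazine. With wortmannin the complex III count includes UQCRC1 at -0.14 (adjusted p = 0.0268), a call lost in 4 of 6 fits that left out 1 library. The subunits that fell with all 3 drugs, picked out after their values were seen, were CYC1, UQCRC2, ATP5F1B and ATP5MC1. These comparisons share the vehicle libraries. No nuclear subunit rose with all 3 drugs, and 8 were called with none, among them the complex I subunits NDUFS1, NDUFS3, NDUFV2, NDUFB8 and NDUFB10.

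ATP5MC1 encodes the c subunit of the rotor ring of ATP synthase, as do other nuclear genes with the same mature protein. ATP5MC1 measured 78.56, 84.24 and 78.24 CPM in vehicle, 53.85, 58.77 and 57.34 with wortmannin, 58.59, 62.89 and 75.22 with LY294002, and 63.86, 70.22 and 57.58 with thioridazine. All 9 drug libraries were below the 3 vehicle libraries. The log2 fold changes were -0.50 ± 0.08 with wortmannin (SE; adjusted p = 1.42e-06), -0.29 ± 0.08 with LY294002 (adjusted p = 0.00245) and -0.33 ± 0.08 with thioridazine (adjusted p = 3.93e-04). Without replicate 1 of LY294002 that change was -0.21 (adjusted p = 0.0526).

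ATP5MC1 was called in more comparisons with vehicle than any other nuclear subunit, extracts included. Its promoter is printed, from RefSeq on GRCh38.p14 (chr17:48892537-48892764, plus strand), a choice made after sequences were seen. The stretch runs for 228 bases and ends at the base before the first annotated exon, with 3 matches of CCAAT in capitals.
ATP5MC1 promoter: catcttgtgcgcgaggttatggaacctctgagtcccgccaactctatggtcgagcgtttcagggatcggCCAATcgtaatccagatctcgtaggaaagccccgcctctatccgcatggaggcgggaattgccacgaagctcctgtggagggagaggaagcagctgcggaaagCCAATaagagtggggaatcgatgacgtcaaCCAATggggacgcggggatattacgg

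The whole window of 300 bases, from 250 before to 50 after the start, held 4 CCAAT on either strand. At least 4 were found in 289 of 27305 windows of all genes (1.06%) and at least 1 in 9747 (35.7%). Among the 23 nuclear genes of the set with a window, ATP5MC1 had these 4, UQCRC2 and TFAM had 1 each and the others 0. CCAAT was searched for after the sequence was seen. Motifs of regulators of mitochondrial genes were searched on both strands in the windows of the 21 nuclear subunits that have one. The core motif of NRF1 was found in NDUFA8 and SDHD (9.5% of the subunits, 1.36% of all windows), CCGGAAGT, bound by ETS factors, in COX5B, NDUFS1 and SDHD (14.3% and 4.44%), and TCAAGGTCA, bound by estrogen-related receptors, in SDHD (4.8% and 0.36%).

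CYC1 encodes cytochrome c1, the subunit of complex III that hands electrons to cytochrome c. It measured 113.9, 113.0 and 112.4 CPM in vehicle, 92.46, 92.77 and 91.59 with wortmannin, 84.61, 95.72 and 96.16 with LY294002, and 90.19, 91.11 and 95.43 with thioridazine. No drug library reached the vehicle libraries, and the log2 fold change was -0.29 ± 0.05 with each drug (SE; adjusted p = 6.91e-06, 4.99e-06 and 2.64e-06 in the same order). UQCRC2, a core protein of complex III, was at -0.20 ± 0.04 with wortmannin, -0.11 ± 0.04 with LY294002 (adjusted p = 0.039) and -0.11 ± 0.04 with thioridazine (adjusted p = 0.0314). The last 2 calls of UQCRC2 were lost in 5 of 6 fits that left out 1 library, all but the one without LY294002 replicate 3 (adjusted p from 0.0769 to 0.307) and all but the one without thioridazine replicate 3 (0.0731 to 0.159). UQCRFS1, the Rieske iron-sulfur protein, fell with thioridazine (-0.26 ± 0.06) and LY294002 (-0.19 ± 0.06) and was not called with wortmannin at -0.08. With LY294002 the call of UQCRFS1 was lost without LY294002 replicate 1 or vehicle replicate 1 (adjusted p from 0.0583 to 0.0851).

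ATP5F1B measured 446.2, 472.3 and 460.9 CPM in vehicle and 392.4, 395.8 and 401.5 CPM with wortmannin. With thioridazine it measured 393.6, 391.5 and 392.2 CPM, and with LY294002 384.2, 416.8 and 431.1 CPM. All 9 drug libraries were lower than the vehicle libraries, and the changes were -0.21, -0.23 and -0.16 on the log2 scale (adjusted p at most 0.00856). With LY294002 the call of ATP5F1B was lost without LY294002 replicate 1 or vehicle replicate 2 (adjusted p from 0.0654 to 0.131). Its partner in the catalytic head, ATP5F1A, was called with no drug and lay between -0.06 and -0.02.

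In complex IV 4 of 5 nuclear subunits rose with LY294002 and 2 with thioridazine, and 0 fell with either. COX5B, a zinc-binding subunit, measured 37.05, 42.56 and 38.09 CPM in vehicle and rose by 0.32 ± 0.09 with thioridazine (SE; adjusted p = 0.00244) and by 0.29 ± 0.09 with LY294002 (adjusted p = 0.00727). The LY294002 libraries held 44.92, 46.87 and 52.26 CPM, all above vehicle. NDUFA4, now assigned to complex IV, rose with LY294002 from 170.9, 163.3 and 150.0 CPM to 174.1, 204.9 and 223.9 CPM (0.32 ± 0.08, adjusted p = 0.00148). COX6C rose with LY294002 from 61.02, 63.42 and 56.51 CPM to 69.72, 78.19 and 78.14 CPM (0.32 ± 0.12, adjusted p = 0.0362). Without LY294002 replicate 3 NDUFA4 was at 0.24 (adjusted p = 0.0269), COX5B at 0.23 (adjusted p = 0.0637) and COX6C at 0.30 (adjusted p = 0.0961), and the call of COX6C was also lost without LY294002 replicate 2 or vehicle replicate 1 or 3. COX5A fell with wortmannin, by 0.20 on the log2 scale (adjusted p = 0.0141), a call lost without wortmannin replicate 2 or vehicle replicate 1 or 2 (0.0525 to 0.101).

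Complex I and II gave mixed changes. NDUFA8, an accessory subunit of complex I, rose by 0.28 ± 0.07 with thioridazine (adjusted p = 0.00128). NDUFA9 fell by 0.24 with wortmannin and by 0.23 with LY294002. The other complex I calls with LY294002 were rises, NDUFB3 at 0.26, NDUFB5 at 0.22, NDUFV1 at 0.20 and NDUFA8 at 0.18. In complex II, which oxidizes succinate, the iron-sulfur subunit SDHB fell by 0.22 with wortmannin and by 0.21 with LY294002, the latter not called without LY294002 replicate 1 (adjusted p = 0.0526). With LY294002 SDHC rose by 0.16 and SDHA by 0.13. Of these LY294002 rises in complexes I and II only NDUFB5 stayed called without LY294002 replicate 3 (adjusted p = 0.0493). The membrane anchor SDHC rose by 0.19 and the other anchor SDHD by 0.22 with thioridazine, the latter not called without thioridazine replicate 3 (adjusted p = 0.11). Thioridazine differed from LY294002 most in NDUFV1, the NADH-binding subunit of complex I, at -0.30 ± 0.06 (adjusted p = 1.43e-04), and in NDUFB3, at -0.29 ± 0.10 (adjusted p = 0.017), a call lost without LY294002 replicate 3 (adjusted p = 0.217) or thioridazine replicate 3 (0.0615). Against LY294002 1 nuclear subunit was higher, SDHB at 0.15, and 3 were lower. Against wortmannin 5 were higher, with COX5B (0.23) and SDHC (0.19) in the lead, and 2 lower, UQCRFS1 (-0.17) and SDHA (-0.15). Of these, SDHC and SDHA kept their calls without each library in turn, while SDHB, COX5B and UQCRFS1 each lost theirs in 3 or 4 of 6 such fits. The sole call between wortmannin and LY294002 was SDHC, at -0.16 ± 0.05 (adjusted p = 0.0203), lost without wortmannin replicate 1 or LY294002 replicate 3 (0.111 to 0.325).

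**Figure D3:**
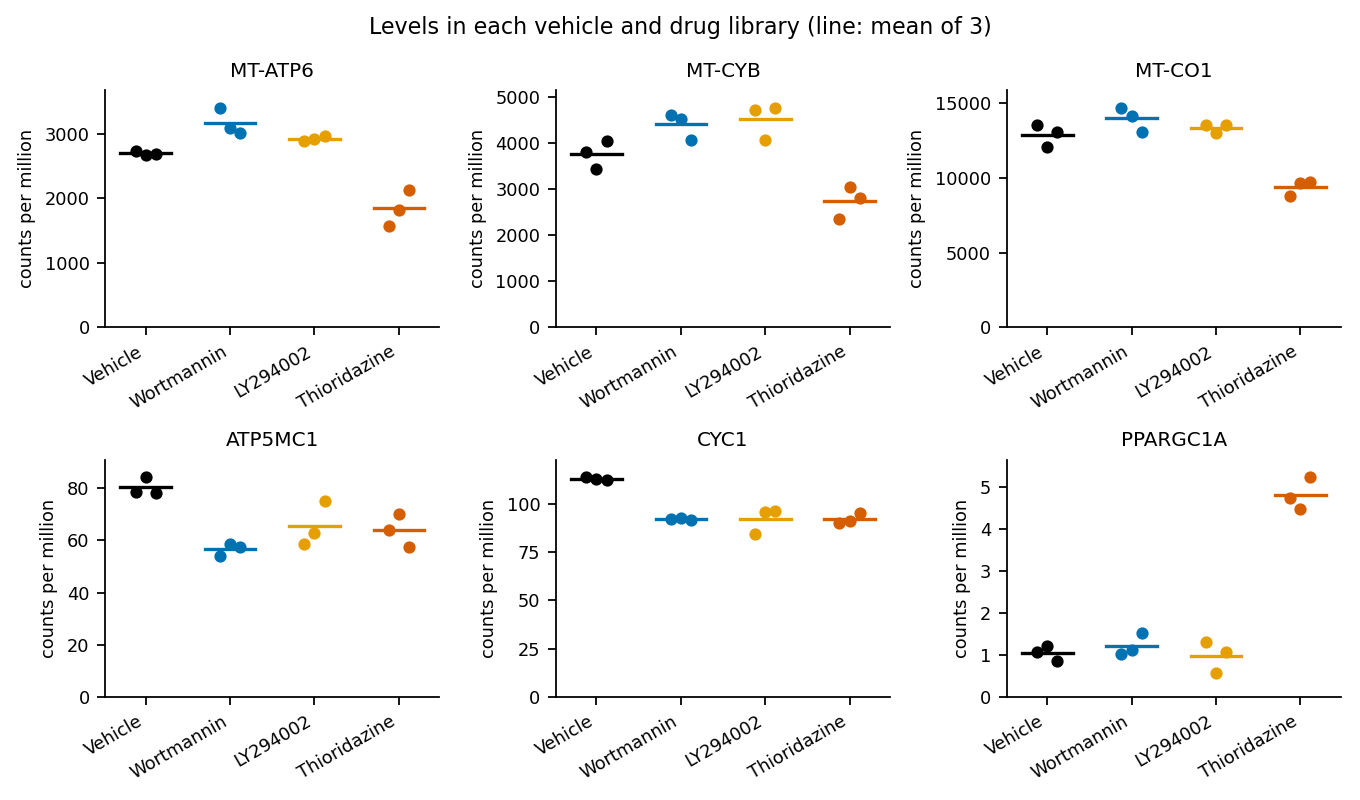
CPM in each library of vehicle, wortmannin, LY294002 and thioridazine for MT-ATP6, MT-CYB, MT-CO1, ATP5MC1, CYC1 and PPARGC1A; points are libraries, 3 per group, and lines are their means. MT-ATP6 is lowest in the thioridazine libraries (1577 to 2130 CPM), whereas CYC1 and ATP5MC1 are lower than vehicle in all 9 drug libraries.

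The test called few of these genes with the extracts, and how many depended on the setting. In 13 of the 18 extract groups 0 of the 41 subunits passed edgeR's test, with 0 to 8 at an unadjusted p under 0.05 and 0 or 1 called by DESeq2. Without the filter on low counts the same groups had 0 to 13 mitochondrial genes and 0 to 4 nuclear subunits called, and with each group and vehicle fitted alone 0 to 7 and 0 to 11. The highest mitochondrial counts were those of licorice low, in which 13 mitochondrial genes fell without the filter, and of ginseng high and angelica medium, in which 7 fell in the fits of the groups alone. Few genes of any kind changed in most of them. At the medium dose 1.47% of all genes were called with poria, 1.06% with atractylodes, 0.569% with ginseng, 2.91% with angelica and 2.55% with peony, and at the low dose 0.419%, 0.804%, 3.29%, 0.592%, 1.75% and 5.23% with poria, atractylodes, licorice, ginseng, angelica and peony. Across the groups the median over the 13 mitochondrial genes was below 0 in 17 of 18, from -0.28 to 0.00, and the median over the nuclear subunits was above 0 in 15 of 18. The mean of the 6 low-dose groups against vehicle gave mitochondrial and nuclear medians of -0.14 and 0.06. No subunit was called by edgeR or DESeq2, beside 5.35% of all genes, and 6 nuclear subunits had an unadjusted p under 0.05. Without the filter 10 mitochondrial genes fell in the pooled low doses, and without the 3 libraries that stood apart, ginseng low replicate 1 among them, 5 nuclear subunits were called. Every one of these comparisons uses the same 3 vehicle libraries.

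Atractylodes at the high dose raised 10 nuclear subunits and lowered 0, with a median of 0.15 (35.7% called, against 13.9% of all genes, 7.24% upward), while 1 was called with that group and vehicle fitted alone. NDUFB3, an accessory subunit of complex I, measured 25.97, 20.22 and 20.36 CPM against 16.33, 17.03 and 15.65 CPM in vehicle and rose by 0.44 ± 0.10 (SE; adjusted p = 0.00162). NDUFA8 rose by 0.31 ± 0.07 (adjusted p = 0.00335) and NDUFB8 by 0.31 ± 0.08 (adjusted p = 0.00544). Replicate 1 was the highest library for NDUFB3, and the mitochondrial share in this group ran from 3.36% to 4.77%, lowest in the same library.

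Without replicate 1 of atractylodes high 1 of the 10 calls remained, NDUFV2, a core subunit of complex I, at 0.24 (adjusted p = 0.0488). The median over the 28 subunits was then 0.07, with 24 of them above 0. In that library the shortest 20% of genes was 0.197 higher and the longest 20% 0.154 lower than in the other libraries of the group. Of 1693 other genes in the shortest 20% 369 rose and 56 fell with atractylodes high, and of 1693 in the longest 20% 67 rose and 270 fell. The part of this length pattern in the subunit counts was not tested.

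Licorice at the medium dose raised 15 nuclear subunits and lowered 0, with a median of 0.19 (53.6% called, against 25.2% of all genes, 12.4% upward), while 7 were called with that group and vehicle fitted alone. ATP5MC1 measured 107.7, 97.18 and 112.9 CPM, all above the vehicle libraries, and rose by 0.40 ± 0.08 (SE; adjusted p = 1.15e-04). NDUFB3 rose by 0.40 ± 0.10 (adjusted p = 0.00184). MT-CYB fell by 0.42 on the log2 scale (adjusted p = 0.0385), with 3247, 3023 and 2178 CPM, the lowest in replicate 3, and the call was also lost without vehicle replicate 1 or 3.

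Without replicate 3 of licorice medium 6 nuclear subunits were called, all of them among the 15, and MT-CYB was not. ATP5MC1 then stood at 0.35 (adjusted p = 0.00381), NDUFB3 at 0.34 and NDUFA4 at 0.32, beside NDUFA8 at 0.26, NDUFB8 at 0.24 and ATP5PO at 0.18. The median over the 28 subunits was 0.11, with 21 above 0. In replicate 3 the shortest 20% of genes was 0.161 higher and the longest 20% 0.190 lower than in the other libraries of the group. Of the other genes in the shortest 20% 620 rose and 69 fell with licorice medium, and in the longest 20% 82 rose and 693 fell.

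**Figure D4:**
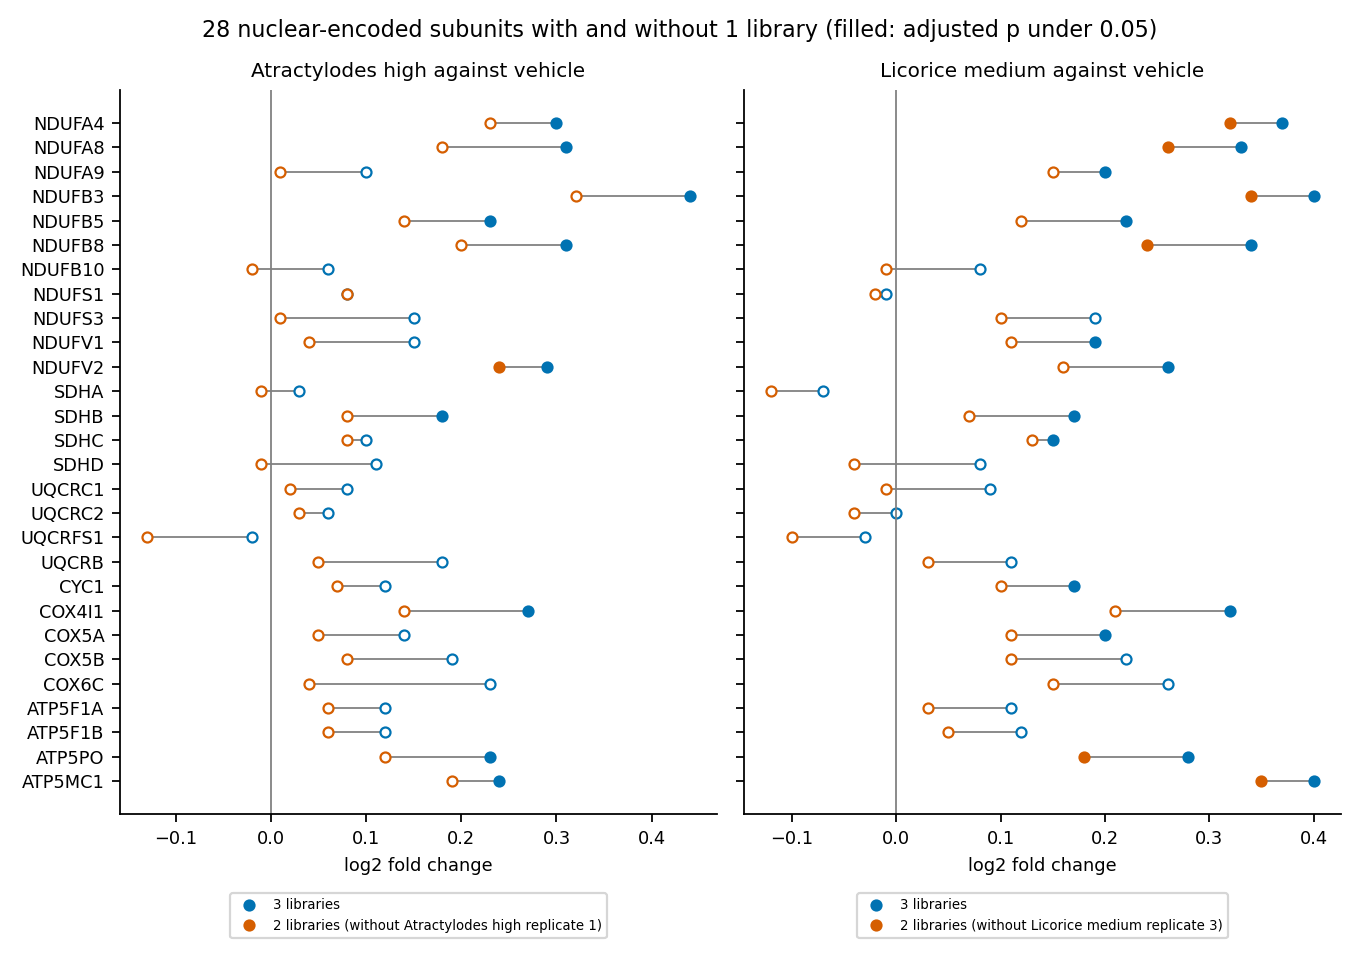
Log2 fold change against vehicle of the 28 nuclear subunits with atractylodes high and licorice medium, from all 3 libraries and without the library that stood apart (replicate 1 and replicate 3); filled points passed the test. Called subunits went from 10 to 1 and from 15 to 6.

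Licorice at the high dose raised 5 nuclear subunits and lowered 2 (25% called, against 30.9% of all genes), and fitted alone with vehicle it raised 11 and lowered 2. ATP5MC1 measured 101.6, 91.08 and 103.4 CPM, all above vehicle, and rose by 0.30 ± 0.08 (SE; adjusted p = 0.00224), followed by NDUFA8 at 0.25 ± 0.07 and NDUFA4 at 0.22 ± 0.08. SDHA, the flavoprotein of complex II that binds succinate, fell from 127.9, 133.4 and 131.2 CPM to 119.5, 113.3 and 116.2 CPM, without overlap (-0.17 ± 0.04, adjusted p = 0.00103), and UQCRFS1 fell by 0.20. MT-CYB fell by 0.40 on the log2 scale (adjusted p = 0.0407), with 3139, 2617 and 2794 CPM, a call lost without licorice high replicate 2 or 3 or vehicle replicate 1 or 3 (0.0941 to 0.143). ATP5MC1, NDUFA8 and SDHA were called without each library in turn, and without replicate 3 of licorice high they were the 3 nuclear subunits called. In the shortest 20% of other genes 448 rose and 197 fell, and in the longest 20% 201 rose and 550 fell.

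SDHA went the other way with poria at the high dose, rising to 152.1, 147.7 and 141.2 CPM (0.17 ± 0.04, adjusted p = 0.00347), again without overlap with vehicle. NDUFS1, a core subunit of complex I, was at 0.15 ± 0.05 (adjusted p = 0.0323), not called without poria high replicate 1 or any 1 of the vehicle libraries (0.054 to 0.204). These 2 were the subunits called, 7.14% of the nuclear subunits against 11.6% of all genes. Angelica at the high dose lowered MT-CO2 to 3881 and 3703 CPM, below all 3 vehicle libraries (-0.42 ± 0.12, adjusted p = 0.0215), with no nuclear subunit called and 6.46% of all genes changed. That call was lost without either angelica library or vehicle replicate 1 or 2 (adjusted p from 0.0539 to 0.255). Ginseng and peony at the high dose called 0 subunits, while they changed 7.25% and 20.7% of all genes. Without the filter 9 and 8 mitochondrial genes fell with them, and 7 fell with ginseng when it was fitted alone with vehicle. The mitochondrial ribosomal RNAs, which are outside the set, were called with several high doses. MT-RNR2 was at -0.51 with poria (adjusted p = 1.00e-04), -0.42 with angelica (0.00709), -0.38 with ginseng (0.00592) and -0.27 with peony (0.047). MT-RNR1 was called with poria (-0.36), angelica (-0.38) and, upward, licorice (0.29, adjusted p = 0.0212). Neither was called with atractylodes.

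Dose comparisons within an extract use no vehicle library. In the 12 contrasts of the high or medium with the low dose no mitochondrial gene was called by edgeR or DESeq2, with 0 to 2 at an unadjusted p under 0.05, and 3 contrasts held 5 calls among nuclear subunits. Without the filter 0 to 9 mitochondrial genes were called in these contrasts, the most between the medium and the low dose of angelica (9, all lower) and between its high and low dose (8, all lower), and with the groups fitted alone 0 to 2 were called. The angelica low libraries lay far apart, with mitochondrial shares of 3.68% in replicate 1 and 5.16% in replicate 2. Only replicate 2 lay above the libraries of the higher angelica doses in that share. In the other 9 contrasts few genes changed: 4.1%, 0.653%, 0.943% and 5.9% of all genes between the high and the low dose of atractylodes, ginseng, angelica and peony, and 0.0502%, 0.24%, 0.00558%, 0% and 0.156% between the medium and the low dose of poria, atractylodes, ginseng, angelica and peony. ATP5MC1 was higher with licorice at the high than at the low dose by 0.21 (adjusted p = 0.0459, 18.2% of all genes called) and at the medium than at the low dose by 0.31 (adjusted p = 0.00702, 8.66% of all genes). The low-dose libraries held 82.27, 85.0 and 88.51 CPM of ATP5MC1, below all 6 libraries of the higher doses. COX5A was at 0.23 (adjusted p = 0.0199) between the medium and the low dose. SDHA was lower at the high than at the low dose of licorice by 0.13 on the log2 scale (adjusted p = 0.0161) and higher for poria by 0.13 (adjusted p = 0.044, 5.51% of all genes). None of these 5 calls was kept without each library in turn. Without replicate 3 of licorice medium ATP5MC1 stood at 0.27 (adjusted p = 0.115) and 0 nuclear subunits were called between the medium and the low dose.

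Other genes of mitochondrial expression were mostly lower among the calls with the drugs. Over all genes 15.4% rose and 16.4% fell with wortmannin, 19.4% and 19.9% with LY294002 and 24.6% and 23.8% with thioridazine, the shares beside which the counts of these lists stand. Of 81 mitochondrial ribosomal proteins, which translate the 13 mitochondrial messages, 39 fell and 0 rose with wortmannin, 36 fell and 5 rose with LY294002, and 43 fell and 3 rose with thioridazine, with medians of -0.15, -0.15 and -0.18. These falls are 48.1%, 44.4% and 53.1% of the list. Leaving out 1 library at a time gave 22 to 30, 27 to 36 and 35 to 40 falls, with 22, 23 and 25 for wortmannin without vehicle replicate 2, wortmannin replicate 1 and wortmannin replicate 2. MRPL1 stood at -0.51 with wortmannin and -0.49 with thioridazine, and MRPL3 at -0.58 with LY294002 (adjusted p = 1.37e-13).

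With atractylodes high 26 of the 81 ribosomal proteins rose and 0 fell, 32.1% beside 7.24% of all genes that rose. Without its replicate 1, the library that stood apart, 2 rose, beside 2.65% of all genes, and 13 and 12 rose without vehicle replicate 1 and 3. With licorice medium 38 rose and 0 fell, 46.9% beside 12.4% of all genes. Without its replicate 3, 15 rose and 0 fell, beside 6.08% of all genes. With licorice high 25 rose and 3 fell, beside 30.9% of all genes called in either direction, and 15 rose without its replicate 3. The part of the length pattern of these libraries in the counts was not tested.

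Of 18 genes that process or degrade mitochondrial RNA, 7 fell and 0 rose with wortmannin, 12 fell and 1 rose with LY294002, and 9 fell and 2 rose with thioridazine. The falls are 38.9%, 66.7% and 50% of the list, beside 16.4%, 19.9% and 23.8% of all genes. ELAC2, which cuts the tRNAs out of the long transcripts, was at -0.55 with thioridazine (adjusted p = 2.50e-19) and -0.38 with LY294002, and SLIRP, which stabilizes mitochondrial messages, was at -0.43 with thioridazine. Of 14 genes of mitochondrial DNA transcription and replication 3 rose and 4 fell with thioridazine, TFB2M, a transcription factor of the mitochondrial promoters, being at 0.31 and the related methyltransferase TFB1M at 0.37. Wortmannin lowered 3 of the 14 and raised 1, and LY294002 lowered 1 and raised 2.

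Of 12 nuclear regulators of mitochondrial genes 5 rose and 3 fell with thioridazine and with LY294002, and 3 rose and 1 fell with wortmannin. PPRC1, a coactivator related to PGC-1α, was at -0.68 with thioridazine (adjusted p = 1.53e-09), -0.59 with LY294002 and -0.39 with wortmannin. PPARA, a nuclear receptor of fatty acid oxidation, was at 0.88 with thioridazine (adjusted p = 1.06e-14).

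Among the remaining subunits of the complexes the calls with wortmannin were all falls: 4 of 27 other complex I genes (14.8%), 3 of 15 other ATP synthase genes (20%), 1 of 7 other complex IV genes (14.3%) and 1 of 5 genes of the other complex III subunits and cytochrome c (20%), beside 16.4% of all genes. Cytochrome c itself, CYCS, which carries electrons from complex III to complex IV, was at -0.30 with wortmannin (adjusted p = 5.95e-05) and -0.25 with LY294002 (adjusted p = 6.29e-04). With LY294002 6, 5, 0 and 3 genes of these 4 lists, in the same order, rose and 0, 1, 0 and 1 fell, the leading genes being NDUFA1 at 0.60, NDUFA2 at 0.58 and ATP5F1E at 0.52. Without replicate 3 of LY294002 2, 3, 0 and 0 rose. With thioridazine 3, 0, 1 and 0 rose and 5, 6, 1 and 1 fell, with 1 to 5 falls in complex I and 3 to 6 in ATP synthase when 1 library was left out, fewest without vehicle replicate 1 and thioridazine replicate 1. Of 45 assembly factors 11 rose and 11 fell with thioridazine, SURF1, which assembles complex IV, being at 0.62 and TMEM126B, which assembles complex I, at 0.58.

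Enzymes of the citric acid cycle, which feed electrons to the chain, fell in 8 of 13 cases and rose in 1 with thioridazine (61.5% and 7.69%, beside 23.8% and 24.6% of all genes). Citrate synthase (CS) was at -0.49 (adjusted p = 7.57e-16) and FH at -0.34. The counts were 6 down and 0 up with wortmannin (46.2% down, beside 16.4%) and 5 down and 2 up with LY294002 (38.5% down, beside 19.9%), the latter with 3 or 4 down when 1 library was left out. Of 11 mitochondrial chaperones and proteases 8 fell and 0 rose with wortmannin and 9 fell and 0 rose with LY294002 (72.7% and 81.8%), HSPD1 (the chaperonin Hsp60) being at -0.44 and -0.41. With thioridazine 5 fell and 2 rose (45.5% and 18.2%), and the leading genes were the ones that rose, LONP1, a protease of the matrix, at 0.67 (adjusted p = 2.81e-17) and HSPA9, the matrix Hsp70, at 0.55 (adjusted p = 6.76e-20).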

How the data were processed

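Per the labels' protocols, total RNA with a RIN above 7 (1 µg) was made into libraries with the MGIEasy RNA Directional kit and read on an MGIseq instrument. The authors deposited a table of expected counts for each gene, estimated with RSEM 1.3.3 and without scaling between samples; the submitters' processing notes also name STAR 2.7.3a, Trim Galore 0.6.5, FastQC 0.11.9 and GRCh38. Of its 279 columns 60 belong to the samples described here and 219 were not used here. Values were rounded, since 9.48% were not whole numbers (tolerance 1e-06).

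Genes were kept by filterByExpr (minimum count 10, minimum total 15) of edgeR 4.0.16 in R 4.3.3, and 1 quasi-likelihood model with a coefficient for each group was fitted to all 60 libraries after TMM scaling. The 37 contrasts were tested two-sided with edgeR's quasi-likelihood F-test, with Benjamini-Hochberg adjustment over 17919 genes and a threshold of 0.05. The common biological coefficient of variation was 0.0507. The SE is the log2 fold change divided by the square root of F. Levels are CPM on TMM-scaled library sizes. Positions and merged exon lengths are from GENCODE 29, and promoters are from RefSeq (GRCh38.p14).

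Members and lists were chosen with earlier results of these data known. The text names up to 3 called members with the largest rise and up to 3 with the largest fall per drug or high-dose comparison, for mitochondrial and nuclear genes each (up to 2 in other contrasts), TFAM and PPARGC1A everywhere, and up to 2 genes per pathway list; others were named after their values were seen. Replicate numbers were checked as pairs: with vehicle, same-numbered libraries all correlated above 0.1 in 1 of 15 group pairs of 3 libraries, and in 10 of 33 pairs of groups of one code set (r from -0.47 to 0.62). Pairing was not assumed, and the block moved no count by over 1.5 times. Alternatives were the DESeq2 1.42.0 Wald test, RLE size factors, no filter, the groups of a contrast alone, mitochondrial genes left out of the scaling, a replicate block, each library left out in turn and, chosen after seeing the data, 3 libraries left out together (replicate 1 of atractylodes high and of ginseng low, replicate 3 of licorice medium), and single libraries left out of the pathway list counts.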

Additional observations from a re-analysis of the deposited data

How the results depend on the processing

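Counts of called genes were recomputed for the mitochondrial and the nuclear subunits in all 37 comparisons, 74 counts in all; comparisons are with vehicle unless another group is named, and the cause of each change was not tested. With the replicate number as a block 74 of 74 counts stayed within 1.5 times (6 mitochondrial genes with thioridazine) and 113 of 113 single calls were kept; crossing the numbers for angelica high against low, whose same-numbered libraries deviated in opposite directions (r = -0.211), left both counts at 0. DESeq2 moved 6 counts: the mitochondrial ones to 2 for LY294002, licorice high and angelica high and to 1 for angelica medium, and the nuclear ones to 5 for licorice medium against low and 2 for wortmannin against LY294002. RLE size factors moved the mitochondrial count to 1 for angelica medium, and library sizes without mitochondrial RNA moved it to 1 for LY294002. The mitochondrial median was below 0 in 17 or 18 of the 18 extract groups under each of these settings.

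Without the 3 libraries that stood apart the mitochondrial counts were 2 for LY294002 and angelica high, 1 for angelica medium and 0 for licorice medium. The nuclear ones were 12 for licorice high, 8 for licorice medium, 6 for wortmannin against LY294002, 5 for licorice high against low and the pooled low doses, 3 for peony high, angelica medium and the low doses of atractylodes, licorice and peony, 2 for atractylodes high and poria medium, 1 for poria low, angelica low and peony high against low, and 0 for licorice medium against low.

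With the groups of a comparison fitted alone the mitochondrial counts were 7 for ginseng high and angelica medium, 6 for licorice high, 5 for wortmannin, angelica high and peony low, 4 for LY294002, atractylodes low and licorice low, 3 for poria medium, 2 for peony medium against low, 1 for peony medium, poria low, licorice high against low and wortmannin against LY294002, and 0 for licorice medium. The nuclear ones were 18 for thioridazine, 15 for wortmannin, 13 for licorice high and thioridazine against wortmannin, 11 for licorice low, 9 for peony low, 8 for poria medium, 7 for angelica high and licorice medium, 6 for poria high and angelica medium, 5 for poria low and licorice high against low, 3 for ginseng high and wortmannin against LY294002, 2 for peony high, peony medium, atractylodes low and poria high against low, 1 for atractylodes high, atractylodes medium and ginseng medium, and 0 for licorice medium against low.

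With no filter on low counts the mitochondrial counts were 13 for licorice low, 12 for thioridazine against wortmannin, 11 for thioridazine, angelica high and thioridazine against LY294002, 10 for angelica medium, atractylodes low and the pooled low doses, 9 for wortmannin, atractylodes high, licorice high, ginseng high, peony low and angelica medium against low, 8 for peony high, licorice medium and angelica high against low, 7 for LY294002, 6 for poria high and medium, 5 for poria high, atractylodes medium and peony medium against low, 4 for licorice, ginseng and peony high against low and wortmannin against LY294002, 3 for poria low and for atractylodes high, poria medium and licorice medium against low, 2 for peony medium, and 1 for ginseng medium and angelica low. The nuclear ones were 7 for licorice medium against low, 4 for poria low, 3 for wortmannin against LY294002, 2 for peony high, 1 for poria high, poria medium, peony high against low, the pooled low doses and the low doses of atractylodes, licorice and peony, and 0 for poria high against low.

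Leaving out each library in turn (a group of 2 is then 1 library, assumed to vary like the others), the mitochondrial counts ran from 1 to 2 for wortmannin, 0 to 2 for LY294002 and atractylodes high, 4 to 6 for thioridazine, 6 to 7 for thioridazine against LY294002, and 0 to 1 for licorice high and medium, angelica high, peony high and angelica high and medium against low. The nuclear ones ran from 7 to 8 for wortmannin, 10 to 14 for LY294002 (10 without replicate 3, with more falls than rises), 9 to 11 for thioridazine, 1 to 2 for poria high, 1 to 14 for atractylodes high, 3 to 6 for licorice high, 6 to 19 for licorice medium, 0 to 2 for peony high and for peony high and angelica medium against low, 0 to 1 for poria and licorice high against low, 0 to 4 for angelica high against low, 0 to 10 for licorice medium against low, 0 to 6 for wortmannin against LY294002, 3 to 4 for thioridazine against LY294002 and 2 to 7 for thioridazine against wortmannin. Of single calls 112 of 113 were kept with DESeq2, 112 with RLE, 109 with mitochondrial RNA out of the scaling, 105 with no filter, 94 without the 3 libraries and 89 with groups alone; of 677 fits without 1 library, 523 kept the call.

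The precision of each call is limited by 2 or 3 libraries per group, and PPARGC1A rested on 23 to 140 counts per library in the vehicle and thioridazine groups.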
